A study of Mus musculus with 4 samples.

Results

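The MHC class II genes and their activator were examined as 8 genes, taken by symbol from the 23420 gene rows of the deposited count table. They are the classical chains H2-Aa, H2-Ab1 and H2-Eb1, the invariant chain Cd74, the peptide editor chains H2-DMa, H2-DMb1 and H2-DMb2, and the activator Ciita. All 8 were found. RNA from cultures of 2 mouse keratinocyte lines, MK2 and MK1, had been sequenced, with 2 biological replicates per line and no treatment in the labels. Keratinocytes are the epithelial cells of the epidermis, and the study concerns p63, a transcription factor of stratified epithelia. The labels give no strain, sex, age or passage for either line, and each line stands for itself alone.

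MHC class II molecules present peptides from endocytosed proteins to CD4+ T cells. They are made constitutively by B cells, dendritic cells, macrophages and thymic epithelium, while keratinocytes are known to make them mainly after exposure to interferon gamma. Ciita binds no DNA itself. It is recruited to class II promoters by factors that sit on a conserved X box and Y box upstream of each gene. The chains assemble on the invariant chain Cd74, cathepsins digest the invariant chain down to a short fragment, and H2-DM exchanges that fragment for antigenic peptide.

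Promoter windows from RefSeq (build GRCm38.p6) existed for 5 members, H2-Aa, H2-Eb1, H2-DMa, H2-DMb1 and H2-DMb2, but not for H2-Ab1, Cd74 or Ciita. Each window runs from 250 bases before to 50 bases after an annotated start. The stretches below hold TGATTGG and the bases before it, and they are given 5′ to 3′ on the gene's own strand. None of the X box letters searched for was matched in the H2-DMb2 window. Whether Ciita acts through these stretches was not tested. Capitals mark TGATTGG, an extended Y box, and TGATGATGC or TGACGTCA, letters of the X box region. They lie at chr17:34287864-34287918 (minus strand) for H2-Aa, chr17:34305761-34305815 (plus strand) for H2-Eb1, chr17:34153083-34153137 (plus strand) for H2-DMb1 and chr17:34145112-34145166 (plus strand) for H2-DMb2.
H2-Aa: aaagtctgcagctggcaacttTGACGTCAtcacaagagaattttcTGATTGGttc
H2-Eb1: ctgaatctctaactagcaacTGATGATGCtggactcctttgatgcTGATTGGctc
H2-DMb1: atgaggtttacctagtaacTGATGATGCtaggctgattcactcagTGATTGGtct
H2-DMb2: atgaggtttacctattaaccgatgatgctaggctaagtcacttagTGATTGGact

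TGATTGG was present in these 4 windows, and on either strand 7.82% of all 32851 windows held it. Neither of the 2 H2-DMa windows held it, which says only that these letters are not in those windows. The shorter Y box core ATTGG, which TGATTGG contains, occurred in 37.4% of all windows, in all 4 windows shown and in 1 of the 2 H2-DMa windows. TGATGATGC occurred in the H2-Eb1 and H2-DMb1 windows and in 0.253% of all windows. TGACGTCA occurred in the H2-Aa window and in 1.79% of all. A degenerate X box pattern, also searched on both strands, matched H2-DMb1 alone among the members with a window and 5.33% of all windows. TGATTGG, TGATGATGC and TGACGTCA were chosen after the windows had been read.

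The 4 libraries held 25237391 to 30261111 counts, and where none was counted, a limit of 3 counts corresponds to 0.0987 to 0.119 CPM, depending on the library (CPM, counts per 1e+06 counts, scaled by TMM). Such limits cover counting error only. Both lines had high levels of Krt5, a gene which basal keratinocytes express. It averaged 7940 ± 1300 CPM in MK2 and 8030 ± 112 CPM in MK1 (SD, n = 2 cultures per line here and below). Krt15, another keratinocyte marker, differed between the MK2 cultures, with 27.9 and 0.247 CPM, against 4.77 and 4.47 CPM in MK1. Counts are of bulk cultures, so fewer cells of a type and less RNA per cell cannot be told apart. Across the table, 54.6% of 12479 tested genes differed between the lines (edgeR's quasi-likelihood test, Benjamini-Hochberg adjusted p under 0.05), with 28.6% lower and 25.9% higher in MK2. Of 8 listed keratinocyte markers, Itga6 was higher in MK2, Dsp and Col17a1 were lower and 5 were not called.

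Class II transcripts were present in both MK1 cultures and were nearly absent from MK2, except for H2-DMa and H2-DMb1. The 8 genes together had 57 and 92 counts in MK2, against 1639 and 1439 counts in MK1. That is 2.26 and 3.24 CPM in MK2, against 53.9 and 53.6 CPM in MK1. H2-DMa and H2-DMb1 made up 91.2% and 100% of these counts in MK2 and 12.5% and 10.8% in MK1. Of the 8 genes, 3 had no count in MK2 and another 3 had 1 to 3 counts over both MK2 libraries.

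**Figure D1:**
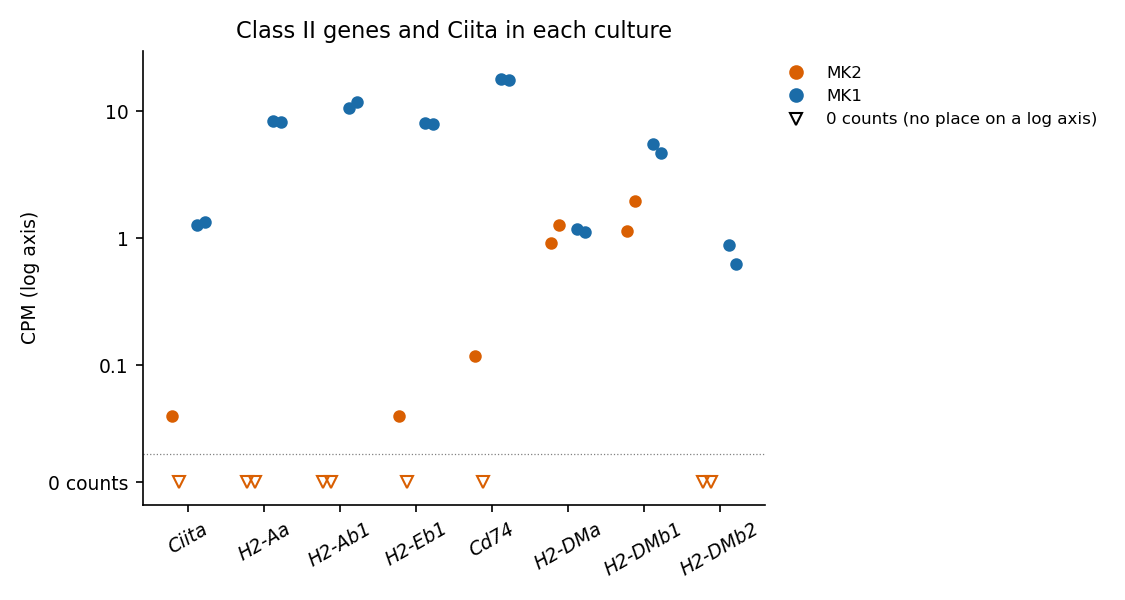
CPM of the 8 genes in each culture on a log axis, MK2 in orange and MK1 in blue, with 0 counts drawn below the dotted line. Ciita, H2-Aa, H2-Ab1, H2-Eb1, Cd74 and H2-DMb2 lie at 0 to 0.119 CPM in MK2 and at 0.633 to 17.9 CPM in MK1, whereas the H2-DMa cultures of the 2 lines overlap.

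Ciita, the co-activator that switches class II promoters on (chromosome 16, 10480072 to 10527564, mm10), had 1 and 0 counts in the MK2 cultures, against 39 and 36 counts in MK1. Its level was 0.0199 ± 0.0281 CPM in MK2 and 1.31 ± 0.0409 CPM in MK1. That is 70.1-fold lower in MK2, with a 95% counting interval of 12.2 to 2806 (exact Clopper-Pearson, as for the intervals below). It was called lower in MK2 (edgeR's quasi-likelihood test, adjusted p = 5.69e-04). The MK1 cultures stood at 1.28 and 1.34 CPM, and the lines did not overlap.

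The classical chains form the surface molecules that display peptide. H2-Ab1, the beta chain of the I-A molecule (chromosome 17, 34263227 to 34269418), had 0 counts in both MK2 cultures, against 323 and 319 counts in MK1. Its MK1 level was 11.2 ± 0.887 CPM, which makes it at least 200.1-fold lower in MK2, taking 3 counts over both libraries as the limit (adjusted p = 4.72e-05 in edgeR's quasi-likelihood test). H2-Aa, the alpha chain that pairs with it (chromosome 17, 34282751 to 34287771), had 0 counts in both MK2 cultures, against 254 and 222 counts in MK1. At 8.31 ± 0.0619 CPM in MK1 it was at least 148-fold lower in MK2 (adjusted p = 6.18e-05, same test). H2-Eb1, the beta chain of the I-E molecule (chromosome 17, 34305867 to 34316674), had 1 and 0 counts in MK2, against 246 and 214 counts in MK1. It was 430-fold lower in MK2, with a counting interval of 76.8 to 17022 (adjusted p = 4.35e-05, same test). None of the 3 chains overlapped between the lines.

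Cd74, the invariant chain on which class II molecules fold (chromosome 18, 60803849 to 60812652), was the most abundant of the 8 in MK1. It had 3 and 0 counts in the MK2 cultures, against 545 and 475 counts in MK1. Levels were 0.0596 ± 0.0843 CPM in MK2 and 17.8 ± 0.168 CPM in MK1. It was 318-fold lower in MK2, with a counting interval of 108 to 1544 (adjusted p = 4.34e-05 in edgeR's quasi-likelihood test). All 3 of its MK2 counts came from replicate 1, the culture that also held the lone Ciita and H2-Eb1 counts, so without that culture none of these 3 genes had a count in MK2.

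The peptide editor chains did not move as a unit. H2-DMb1, a beta chain of H2-DM (chromosome 17, 34153191 to 34160229), had 29 and 56 counts in the MK2 cultures, against 169 and 126 counts in MK1. At 1.56 ± 0.582 CPM in MK2 and 5.12 ± 0.613 CPM in MK1 it fell by 1.70 on the log2 scale (SE 0.296, adjusted p = 0.00330 in edgeR's quasi-likelihood test). H2-DMb2, a second beta chain gene next to it (chromosome 17, 34145416 to 34151095), had 0 counts in both MK2 cultures, against 27 and 17 counts in MK1, and was at least 13.7-fold lower in MK2 (adjusted p = 0.00163, same test). H2-DMa, the alpha chain (chromosome 17, 34122832 to 34139101), had 23 and 36 counts in MK2, against 36 and 30 counts in MK1. Its levels were 0.914 and 1.27 CPM in the MK2 cultures, which lay on either side of the 1.18 and 1.12 CPM in MK1, and averaged 1.09 ± 0.252 CPM in MK2 and 1.15 ± 0.0473 CPM in MK1. The log2 change of H2-DMa was -0.07 (SE 0.301, adjusted p = 0.859, same test), and the ratio of counts allowed between 0.725-fold and 1.51-fold lower in MK2. A p of that size does not show equal levels. The sign of the H2-DMa change also turned without MK2 replicate 1, to 0.15.

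The counts of these 3 editor genes carry limits of their own. H2-DMb1 and H2-DMb2 are near copies: 22.7% of the 50-base words in H2-DMb1 transcripts of the GENCODE M21 annotation also occurred in transcripts of other genes, all of them H2-DMb2. For H2-DMb2 that share was 25.9%, most of it with H2-DMb1. With both rows summed, a setting chosen after seeing the data, the log2 change was -1.90 and the call stood. For H2-DMa the shared share was 8.43%, all of it with Brd2. The deposited H2-DMa row has 6 exons. Its first exon starts 224 bases from the end of the Brd2 row, which is read from the opposite strand, and a 12.2 kb intron separates it from the second. The counts do not show which exons the H2-DMa reads came from, and the counting command named no strand option.

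Over the 8 genes, 7 were called lower in MK2 and none higher, against 28.6% of all tested genes called lower. Beyond 2-fold (glmTreat at an adjusted p under 0.05), 6 were called lower, all but H2-DMa and H2-DMb1, against 10.1% of all tested genes. Without MK1 replicate 1, H2-DMb2 lost this call (adjusted p = 0.0734 in edgeR's glmTreat). Cultures of the lines did not overlap for 7 genes, all lower in MK2, against 40.9% of all tested genes. These counts describe the genes and do not test them as a group, because 6 of the 8 passed the low-count filter through MK1 alone and could be found only lower in MK2. H2-DMa and H2-DMb1 were the 2 that passed it in both lines.

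Levels per transcript length differed widely among the 8 genes. In MK1, Cd74 led with 26.3 ± 0.672 TPM (counts per length, scaled to a sum of 1e+06), followed by H2-Ab1 with 19.7 ± 1.24, H2-Aa with 16.3 ± 0.383 and H2-Eb1 with 10.1 ± 0.270 TPM. H2-DMb1 stood at 8.36 ± 1.13, H2-DMb2 at 2.03 ± 0.513, H2-DMa at 1.45 ± 0.0831 and Ciita at 0.482 ± 0.00728 TPM. In this order each gene exceeded the next by more than their SDs together, apart from H2-DMb2 and H2-DMa. In MK2, H2-DMb1 and H2-DMa stood at 2.43 ± 0.873 and 1.31 ± 0.286 TPM, a gap no larger than their SDs together, and Cd74 followed at 0.0850 ± 0.120 TPM. Even Cd74 ranked only 5407th by TPM among the 14520 genes counted in both MK1 libraries, and Ciita ranked 12001st.

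**Figure D2:**
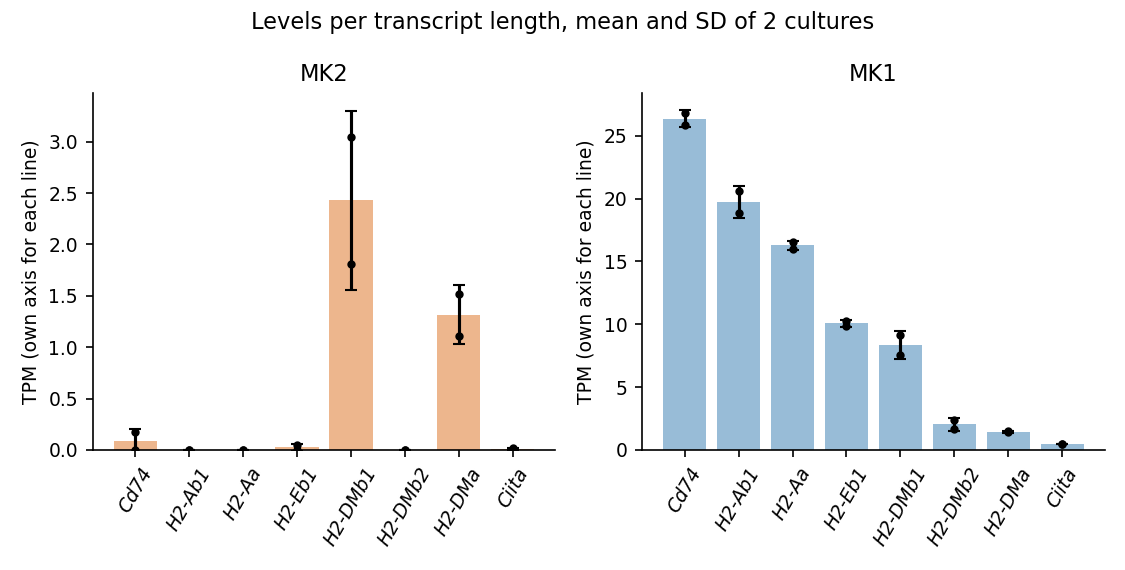
TPM of the 8 genes in MK2 (left) and MK1 (right), each on its own axis starting at 0, with bars for the mean, error bars for the SD and points for the 2 cultures. MK2 shows H2-DMb1 at 2.43 and H2-DMa at 1.31 TPM with little else, whereas MK1 steps down from Cd74 at 26.3 TPM to Ciita at 0.482 TPM.

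The proportions among the chains were alike in the MK1 cultures. H2-Aa stood at 0.878 and 0.777 of the H2-Ab1 level in MK1 replicates 1 and 2, and Cd74 at 1.42 and 1.26 of it, all per length. The H2-DMb1 level was 1.63 and 2.01 times that of H2-DMa in the MK2 cultures, against 6.06 and 5.42 times in MK1. With H2-DMb2 at the limit of 3 counts, its level was at most 0.169 and 0.0875 times that of H2-DMb1 in the MK2 cultures, against 0.261 and 0.220 times in MK1. The ratio of H2-DMb1 to H2-DMa did not overlap between the lines. For H2-DMb2 over H2-DMb1, the MK2 limits lay below the MK1 values. Those MK1 values rest on 27 and 17 H2-DMb2 counts and are given without counting error. Neither difference was tested.

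The other class II genes followed the classical chains. H2-Ob, the beta chain of H2-DO, which restrains H2-DM and is best known from B cells, had 0 and 1 counts in MK2, against 66 and 46 counts in MK1. It was 105-fold lower in MK2, with a counting interval of 18.4 to 4172 (adjusted p = 3.32e-04 in edgeR's quasi-likelihood test). The fitted log2 change of H2-Ob, -6.40, became -5.62 without MK2 replicate 1 and -8.74 without MK2 replicate 2, the culture with its lone count. Its partner H2-Oa had 0 counts in both MK2 cultures, against 15 in each MK1 culture, and was at least 9.35-fold lower in MK2 (adjusted p = 0.00230, same test). H2-Eb2 and H2-Ea-ps had no count in MK2 and 12 and 24 counts over both MK1 cultures, too few to be tested. All 4 listed genes were thus without more than 1 count in MK2.

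Factors that bind class II promoters were expressed in both lines. Of 7 listed genes, 2 fell, 1 rose and 4 did not pass the test, against 28.6% of all tested genes lower and 25.9% higher. The median log2 change was -0.06, against -0.01 over all tested genes. Rfx5, the X box subunit of the RFX complex, stood at 13.8 ± 0.0274 CPM in MK2 and 29.0 ± 3.90 CPM in MK1 (log2 change -1.07, SE 0.147, adjusted p = 0.00127 in edgeR's quasi-likelihood test). The NF-Y subunits, which bind the Y box, split: Nfyb fell by 1.04 and Nfyc rose by 0.93 on the log2 scale, and Nfya was not called at 90.1 CPM in MK2 and 93.9 CPM in MK1. The other RFX subunits were not called, Rfxap with 434 and 420 counts in MK2, against 342 and 369 counts in MK1, and Rfxank with 9.49 CPM in MK2 and 11.5 CPM in MK1.

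Genes that regulate Ciita included several that were lower in MK2, where 28.6% of all tested genes fell and 25.9% rose. Of 13 listed regulators, 11 were tested, 6 fell, 2 rose and 3 were not called (median log2 change -0.47). Without MK1 replicate 1 or MK1 replicate 2, 4 and 3 of them were called. Irf1, the interferon-induced factor that acts on the Ciita promoter, stood at 0.953 and 0.882 CPM in the MK2 cultures, against 7.93 and 11.8 CPM in MK1. The cultures did not overlap, and Irf1 fell by 3.42 on the log2 scale (SE 0.283, adjusted p = 1.85e-04 in edgeR's quasi-likelihood test). Prdm1, a repressor of Ciita in plasma cells, fell too, by 3.30, with 3 and 34 counts in MK2, against 231 and 158 counts in MK1. Its log2 change was -2.48 without MK2 replicate 1 and -5.77 without MK2 replicate 2. The interferon gamma receptor chain Ifngr1 had a log2 change of -0.55 and the kinase Jak1 one of 0.54. Ifngr1 was no longer called when either MK1 culture was left out (adjusted p = 0.0780 without replicate 1 and 0.0540 without replicate 2), nor was Jak1 without MK1 replicate 2 (adjusted p = 0.0535). Irf8, a factor of B and myeloid cells, had 0 counts in both MK2 cultures, against 26 and 30 counts in MK1.

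Enzymes and other genes of class II loading were lower in MK2 or not called, where 28.6% of all tested genes fell and 25.9% rose. Of 9 listed genes, 5 fell, none rose and 4 were not called (median log2 change -0.73), with 2 called without MK1 replicate 1. Ctss, the cathepsin that trims the invariant chain in B cells and dendritic cells, had 0 counts in both MK2 cultures, against 32 and 22 counts in MK1, and was at least 16.8-fold lower in MK2. Ctsl, which does that work in thymic epithelium, stood at 462 ± 152 CPM in MK2 and 869 ± 45.2 CPM in MK1 (log2 change -0.91, SE 0.213, adjusted p = 0.0108 in edgeR's quasi-likelihood test). Leaving out either MK1 culture ended the call of Ctsl (adjusted p = 0.0613 without replicate 1 and 0.0732 without replicate 2). Ctsh, an aminopeptidase of lysosomes, averaged 5.96 ± 3.88 CPM in MK2 and 72.0 ± 7.12 CPM in MK1, a log2 change of -3.58 that became -4.48 without MK2 replicate 2. Ctsb and the asparaginyl endopeptidase Lgmn had log2 changes of -0.76 and -0.73, and neither was called without MK1 replicate 1 (adjusted p = 0.0674 and 0.0556). Ctsd, the most abundant gene of the list per length, was not called, at 1312 ± 356 CPM in MK2 and 1727 ± 132 CPM in MK1. Ifi30, the thiol reductase of antigen processing, was not called either (adjusted p = 0.681).

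Costimulatory and adhesion genes of antigen-presenting cells were lower in MK2. All 5 tested of 8 listed genes fell (median log2 change -3.15), against 28.6% of all tested genes lower in MK2. Cd86, Cd40 and Pdcd1lg2 had too few counts to be tested. Cd83, with 0 counts in both MK2 cultures, and Icosl, with 6 in each, passed the low-count filter through MK1 alone. They could be found only lower in MK2. The same held for H2-Oa, H2-Ob, Irf8 and Ctss above, for Psmb8, Nlrc5 and H2-K2 below, and for many leukocyte markers below. Icosl, a ligand of the T cell receptor ICOS, and Icam1, an adhesion molecule, had log2 changes of -4.52 and -3.15. Cd80, a ligand of CD28, stood at 10.8 and 24.0 CPM in the MK2 cultures, against 81.7 and 89.4 CPM in MK1 (log2 change -2.29, SE 0.328, adjusted p = 0.00151 in edgeR's quasi-likelihood test). Without MK2 replicate 2 the Cd80 change was -2.99. Cd274, which encodes PD-L1, had a log2 change of -1.15.

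**Figure D3:**
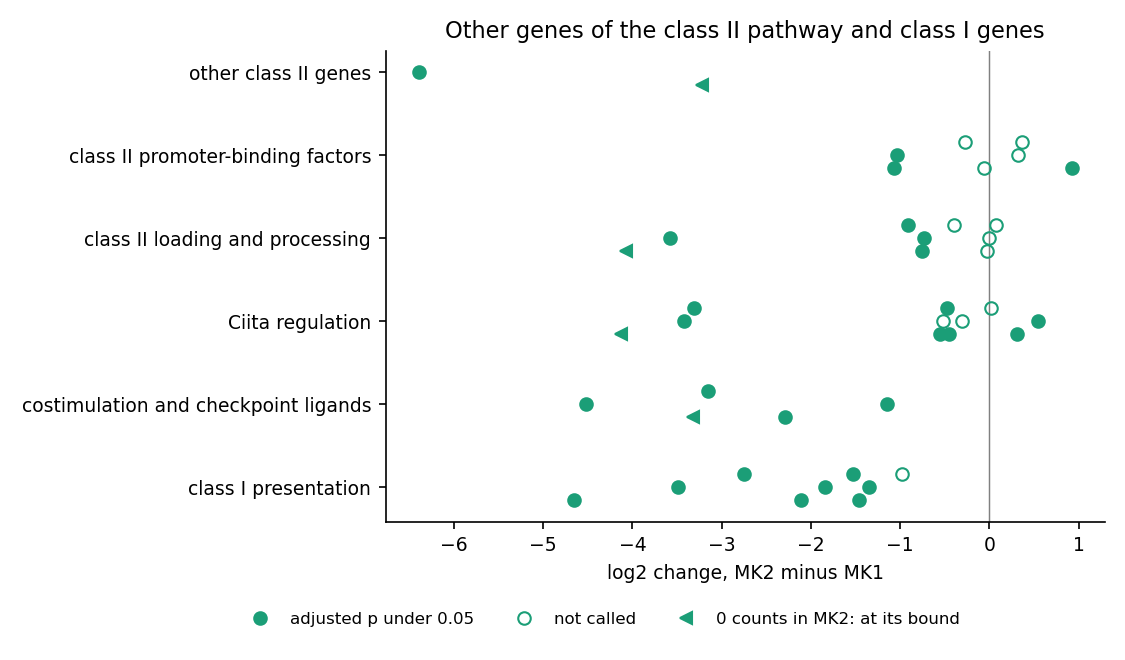
Log2 change, MK2 minus MK1, of every tested gene in 5 lists around class II presentation and in the class I list, with filled symbols for genes called and left-pointing triangles for genes without a count in MK2, drawn at their bound. The promoter-binding factors spread on both sides of 0 (median -0.06), whereas the costimulation genes lie below it (median -3.15).

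Class I genes, which present peptides of the cytosol, had a list median of -1.85 on the log2 scale. That lies between the -0.73 of the loading genes and the -3.15 of the costimulation genes. Of 9 class I genes, 8 were lower in MK2, against 28.6% of all tested genes, and B2m was not called. Nlrc5, the class I counterpart of Ciita, had 0 and 4 counts in MK2, against 68 and 46 counts in MK1 (adjusted p = 0.00141 in edgeR's quasi-likelihood test), and Psmb8, H2-K1 and Psmb9 fell by 3.49, 2.75 and 2.11 on the log2 scale. Without MK2 replicate 2 the H2-K1 change was -3.69.

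The 6 members on chromosome 17 span 194 kb. The 5 other genes lying between the first and the last of them, Psmb9, Tap1, Psmb8, Tap2 and H2-Ob, all fell, whereas genes outside that span moved in both directions or were not called. Within 200 kb of a member's start lay 30 other rows, of which 21 were tested. Of these, 12 fell, 4 rose and 5 were not called (median log2 change -0.52), against 28.6% of all tested genes lower and 25.9% higher. The largest called changes at 1 CPM or more were those of H2-K2, H2-Ob, B3galt4, Psmb8 and H2-K1. H2-K2, a class I locus close in sequence to other class I genes, so that its counts are uncertain, had 0 and 2 counts in MK2, against 177 and 106 counts in MK1. B3galt4, a glycosyltransferase gene, fell by 4.09 on the log2 scale. Brd2, a chromatin reader gene chosen after its value was seen, lies between H2-Oa and H2-DMa and stood at 254 ± 10.9 CPM in MK2 and 249 ± 3.63 CPM in MK1 (adjusted p = 0.854 in edgeR's quasi-likelihood test).

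**Figure D4:**
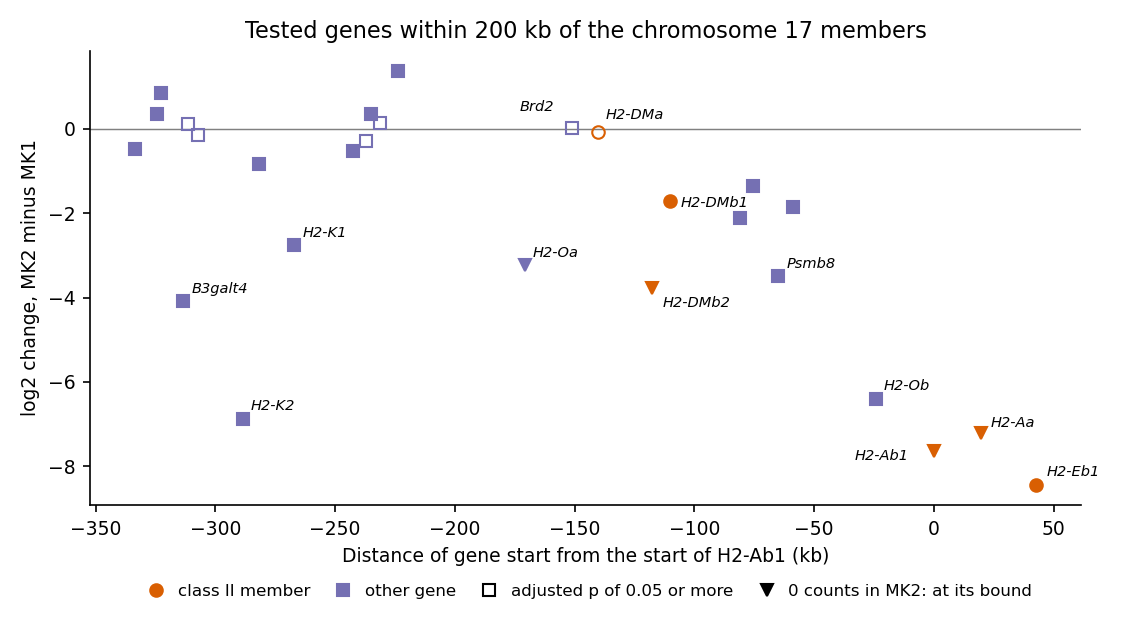
Log2 change, MK2 minus MK1, of tested genes near the chromosome 17 members against the distance of their starts from that of H2-Ab1 in kb, with circles for members, squares for other genes, open symbols for genes not called and triangles for genes without a count in MK2 at their bound. Brd2 and H2-DMa sit side by side near 0, while H2-Ob, H2-Ab1, H2-Aa and H2-Eb1 at the right and H2-K2 at the left lie lowest.

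Many B cell and pan-leukocyte markers were lower in MK2, as were most class II genes. All 12 tested B cell markers and 7 of 8 pan-leukocyte markers were called lower, against 28.6% of all tested genes. Apart from Pou2af1 and Rac2, the tested markers of both lists passed the low-count filter through MK1 alone. They could be called only lower in MK2. Of 14 listed B cell markers, 9 had 1 CPM or more in both MK1 cultures, and Pou2af1 was the 1 that did so in both MK2 cultures. Their summed level was 2.14 and 2.33 CPM in the MK2 cultures, against 24.1 and 24.4 CPM in MK1. Cd79b, a signalling chain of the B cell receptor, had 0 counts in both MK2 cultures, against 71 in each MK1 culture. Cd79a, its partner in that receptor, had 3 and 0 counts in MK2, against 89 and 84 counts in MK1. All 3 of the MK2 counts of Cd79a lay in replicate 1, as did all 3 of Cd74 and the lone MK2 counts of Cr2 and Spib. The lone MK2 counts of Ptprc, Laptm5, Bank1, Pax5 and the class II gene H2-Ob lay in replicate 2. The B cell factors Pax5 and Ebf1 had too few counts to be tested. Pax5 had 0 and 1 counts in MK2, against 8 in each MK1 culture, and Ebf1 had 5 and 3 counts in MK2, against 8 and 9 in MK1. Of 8 pan-leukocyte markers, summed levels were 1.19 and 0.564 CPM in MK2, against 14.3 and 12.2 CPM in MK1. Ptprc, which encodes CD45, had 0 and 1 counts in MK2, against 85 and 64 counts in MK1. Vav1, of the same list, was not called, with 2 and 8 counts in MK2, against 23 and 10 counts in MK1.

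Markers of other class II-bearing cells were uneven, with many at or near 0 and others well counted. Among 9 dendritic and Langerhans cell markers, Cd207, Flt3 and Clec9a had no count in any library and Itgax had at most 1. Ccr7, which B cells also express, and Zbtb46 were the only markers of that list with enough counts to be tested, and the summed level was 0.834 and 1.06 CPM in MK2, against 3.88 and 4.95 CPM in MK1. Among 11 macrophage and monocyte markers, Fcgr1, C1qa, C1qb and C1qc had no count in any library, and the sums of 2.78 and 4.13 CPM in MK2, against 25.8 and 23.9 CPM in MK1, were mostly Cd68 and Cd14. Those MK1 sums were close to the B cell sums of 24.1 and 24.4 CPM. Cd68 stood at 2.62 CPM in MK2 and 16.7 CPM in MK1, and Cd14 at 0.589 CPM in MK2 and 7.22 CPM in MK1. Csf1r, also on the macrophage list, had 2 and 4 counts in MK2, against 25 and 16 counts in MK1. The sums for 11 T and NK cell markers overlapped in part, with 3.02 and 5.36 CPM in MK2, against 2.63 and 3.05 CPM in MK1, and Cd3g, Nkg7 and Klrb1c had no count in any library. Of the 2 tested, Cd2 fell and Cd28 rose. Cd2, like Ccr7 and Csf1r above, passed the low-count filter through MK1 alone and could be called only lower in MK2. Cd28 made up most of the MK2 sums, with 67 and 147 counts in MK2, against 46 and 51 counts in MK1. Aire and Fezf2, defining genes of medullary thymic epithelium, had no count in any library, while Foxn1, which skin epithelium also uses, stood at 10.7 CPM in MK2 and 13.2 CPM in MK1. Ccl25, also listed for thymic epithelium, was higher in MK2 (log2 change 1.15, adjusted p = 0.00491 in edgeR's quasi-likelihood test). Psmb11, of the same list, had 15 and 9 counts in MK2, against 19 and 9 counts in MK1, and was not called. Melanocyte, fibroblast and endothelial lists summed to at most 3.28, 3.45 and 27.4 CPM in any culture. The part of B cell or other leukocyte RNA in the class II levels was not tested.

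**Figure D5:**
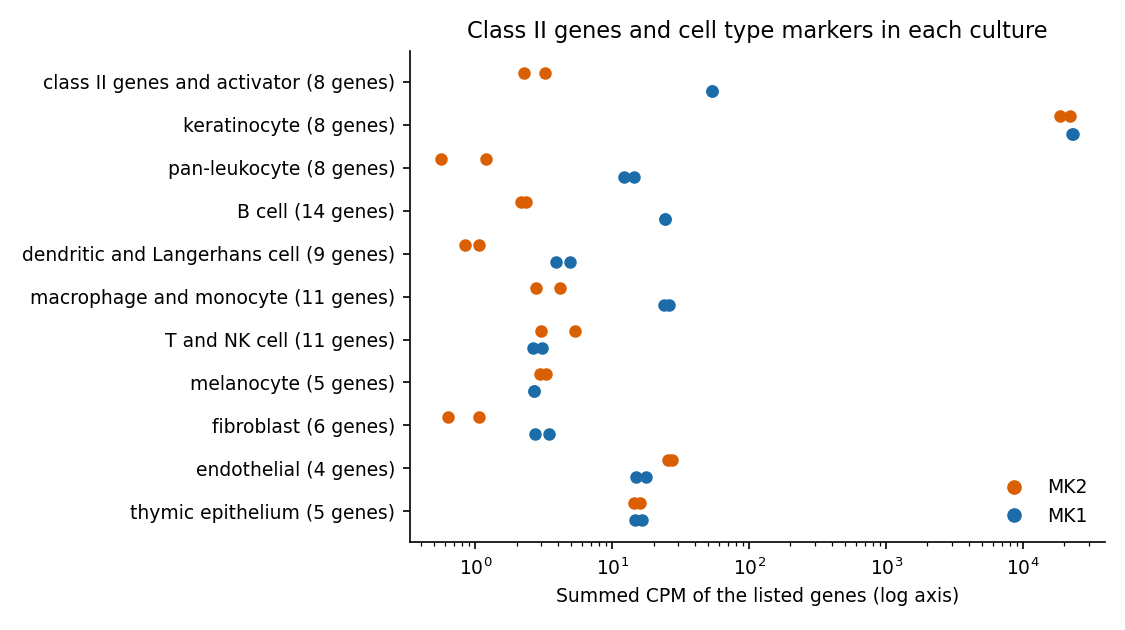
Summed CPM on a log axis of the class II genes with Ciita and of 10 cell type marker lists, MK2 in orange above MK1 in blue, with a point for each culture. The class II, pan-leukocyte, B cell, dendritic, macrophage and fibroblast sums of MK1 lie to the right of those of MK2. The melanocyte and endothelial sums of MK1 lie to the left, and the keratinocyte sums of 18704 to 23150 CPM lie together.

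The genes whose profile over the 4 libraries was most like the mean of the 8 were Phyhd1, Pgbd1, Cd97, Zpbp and Gng2. Likeness was the Euclidean distance between centred log2 CPM values, which ran from 0.14 for Phyhd1 to 0.17 for Gng2. With 2 lines and 2 cultures each, such a profile is little more than the size of the difference between the lines. Phyhd1 had 57 and 63 counts in MK2, against 1933 and 1573 counts in MK1, and Cd97, an adhesion receptor of leukocytes and epithelia, had 67 and 66 counts in MK2, against 2138 and 1893 counts in MK1. Gng2, a G protein subunit, had 17 and 15 counts in MK2, against 586 and 461 counts in MK1. Pgbd1 and Zpbp had no count in MK2.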

How the data were processed

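The authors deposited raw read counts per gene for 4 RNA-seq libraries. Per the file headers, reads were counted over exons of a UCSC mm10 annotation with featureCounts 1.4.6-p4, with no option for strand, read pairs or multiple alignments. The header's command names its input files MK and MKU, whereas the count columns are named MK1 and MK2. Columns were assigned to lines by their own names. The submitters' processing notes list DESeq2 1.10.1, featureCounts 1.5.0, Bowtie2 2.2.6 and TopHat2 2.0.13. The table's length column, deposited by the authors, served for TPM. Unmapped count columns numbered 0.

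Counts were filtered (edgeR 4.0.16 filterByExpr, minimum count 10), scaled by TMM and tested in R 4.3.3 by the quasi-likelihood F test, two-sided, MK2 minus MK1, with Benjamini-Hochberg adjustment over 12479 genes at 0.05. The glmTreat test asked for changes beyond 2-fold. SE is the log2 change divided by the root of F. Log2 CPM used a prior count of 2. Where nothing ties a replicate to an animal, p-values measure the spread between cultures only. The procedure was tested on simulated data. Alternatives were 3 other scalings, no filter or a minimum count of 30, DESeq2 1.42.0, leaving out each culture, a replicate block and, added later, a crossed block and H2-DMb1 summed with H2-DMb2.

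The members and lists were chosen with earlier results of these data known. Named were all members, up to 4 called genes at 1 CPM or more with the largest change and the most abundant gene of each list, up to 5 neighbours, and the 5 most alike profiles. Others, namely Ctss, H2-Oa, H2-Eb2, H2-Ea-ps, Irf8, Nfya, Ifi30, Rfxap, Rfxank, Brd2, Cd83, Tap1 and Tap2, were chosen after their values were seen. For the cell type lists the plan was to give defining markers with counts or CPM and no test. It did not say which markers to name, and the calls given for some go beyond it. Replicates differed by more than counting noise (median chi-square per gene 4.28 in MK2 and 2.88 in MK1), so none was counted a second time.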

Additional observations from a re-analysis of the deposited data

How the results depend on the processing

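Across 13 alternatives, 11 planned and 2 added after the data had been seen, the 8 genes gave 96 values, of which 95 kept their direction and their side of the threshold. The exception was H2-DMa, which ranged from -0.33 without MK2 replicate 2 to 0.15 without MK2 replicate 1. H2-DMb1 ranged from -2.15 to -1.37 over the alternatives, with adjusted p up to 0.0401 in edgeR's quasi-likelihood test and DESeq2. It was called beyond 2-fold with library size alone, with the upper quartile, with no low-count filter, without MK2 replicate 2, with the crossed block and when summed with H2-DMb2, but not in the other alternatives. H2-DMb2 was not called beyond 2-fold without MK1 replicate 1, which left 5 such genes. With a minimum count of 30, H2-DMb2 was no longer tested and 6 genes were called lower. Of the other class II genes, 4 were called with no low-count filter and 1 with a minimum count of 30. With 1 library left out, where the lone culture is assumed to vary like the others, all genes called numbered 3716 to 6847, class II loading and processing genes called 2 to 6, and Ciita regulators called 3 to 7. Of 264 values of other named genes, 252 were alike, 7 lost their call and 5 gained it, and none changed sign. B2m was called with no low-count filter (adjusted p = 0.0135), without MK2 replicate 2 (1.99e-04) and with the crossed block (3.32e-05), and Ctsd without MK2 replicate 2 (0.00154) and with the crossed block (0.00622). Replicate numbers are not stated to pair cultures, and same-numbered deviations had a correlation of -0.151 over 12479 genes. With the replicate block, 5908 genes in all and 7 members lower in MK2 were called, the cause of the smaller total was not tested, and the crossed block, added later, gave 7454 genes and 7 members. Depth limits the genes without a count in MK2 to lower bounds.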
